A study of Mus musculus with 2 samples.

Results

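Leukocyte miRNAs are a set of 8 mature miRNAs that are abundant in blood and immune cells: miR-142a-5p, miR-142a-3p, miR-223-3p, miR-150-5p, miR-155-5p, miR-146a-5p, miR-146b-5p and miR-342-3p. They were chosen by name and found by their miRBase mature-sequence accessions, in that order MIMAT0000154, MIMAT0000155, MIMAT0000665, MIMAT0000160, MIMAT0000165, MIMAT0000158, MIMAT0003475 and MIMAT0000590, which took 8 of the 610 miRNA features of the array. The rule uses no measured value, but the members were chosen with earlier results of these data known. Liver RNA was compared between male Hnf4aΔH mice, in which Hnf4a is deleted in the liver, and male Hnf4af/f mice, which carry the floxed alleles. Both groups were 45 days old and of a mixed 129SV + C57BL/6 background. Each group was represented by 1 array, and the number of animals behind an array, the Cre driver of the deletion and any perfusion of the livers were not given in the sources used here. All values below are therefore single measurements without replicate error, no test between the groups could be made, and the difference between genotypes cannot be told apart from that between animals or hybridizations.

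HNF4a is a nuclear receptor of hepatocytes, and the 8 miRNAs are known mainly from other cells of the liver and its blood. A miRNA is cut from a hairpin transcript, and its seed, bases 2 to 8, pairs with the mRNAs it represses. miR-142a is a marker of nearly the whole haematopoietic lineage, miR-223 is abundant in neutrophils and other myeloid cells, and miR-150 is abundant in mature lymphocytes. miR-155 and miR-146a are induced by inflammatory signalling. The first is a promoter of the response, and the second is a brake on it through the signalling proteins Traf6 and Irak1. miR-146 and miR-342 are not restricted to leukocytes. In whole-liver RNA, a different number of cells of a type and a different amount of miRNA per cell cannot be told apart. Names of other miRNAs could not be paired with accessions here, so markers of hepatocytes, endothelium, erythroid cells and stellate cells were not examined, and their part in the results was not tested.

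The mature sequences of 7 of the 8 miRNAs were found in the RefSeq table of the GRCm38.p6 mouse assembly, all but miR-150-5p. The sequences of the 4 miRNAs with a higher liver-null signal, and of the opposite arm of the miR-142a hairpin, are shown 5′ to 3′ with the seed in capitals, because the results turn on an arm pair and on a pair that shares its seed.
miR-142a-5p: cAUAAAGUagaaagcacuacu
miR-142a-3p: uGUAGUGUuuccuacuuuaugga
miR-223-3p: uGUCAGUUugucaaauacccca
miR-146a-5p: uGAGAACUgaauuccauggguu
miR-146b-5p: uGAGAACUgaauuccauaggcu
The 7 sequences held 6 distinct seeds, and only miR-146a-5p and miR-146b-5p shared one. These 2 miRNAs were identical at 20 of 22 positions and differed as G18A and U21C, given as the miR-146a-5p base, the position from the 5′ end and the miR-146b-5p base. Whether the array's probes tell them apart was not given in the sources used here, so their 2 signals may not be independent. No other mature mouse miRNA in the RefSeq table carried the seed of miR-142a-5p, miR-142a-3p, miR-223-3p, miR-155-5p or miR-342-3p. The 7 sequences were 21 to 23 bases long, with a GC content from 33.3% to 52.2%, lowest in miR-142a-5p and highest in miR-342-3p.

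The 8 miRNAs come from 7 hairpin genes on 6 chromosomes (GRCm38.p6). Mir142 lies at chr11:87756864-87756927 on the plus strand, and its hairpin is shown with miR-142a-5p and then miR-142a-3p in capitals.
Mir142: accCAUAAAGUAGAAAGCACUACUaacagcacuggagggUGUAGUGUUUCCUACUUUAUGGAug
On the opposite strand, the annotated miR-142b at chr11:87756906-87756925 lies within the stretch that gives miR-142a-3p. Mir146 is also on chromosome 11, at chr11:43374397-43374461, and overlaps no other annotated gene. Mir146b at chr19:46342762-46342870 lies within the span of the lncRNA gene Gm36493, and Mir223 at chrX:96242817-96242926 within that of the lncRNA gene F630028O10Rik. Mir342 at chr12:108658620-108658718 lies in the protein-coding gene Evl, and Mir155 at chr16:84714140-84714204 in its lncRNA host gene Mir155hg. Mir150 at chr7:45121757-45121821 overlaps no other annotated gene. Only gene spans were at hand, so exon and intron were not assigned.

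A signal was given on both arrays for 7 of the 8 miRNAs, against 258 of all 610 features (42.3%). miR-155-5p was the exception, with a missing value in both livers. It shared this with 228 other features, and what a missing value stands for was not given in the sources used here. The median reported value was 4.33 for the control and 3.20 for the liver-null array, and all 7 miRNAs but miR-142a-3p lay above both. All 7 signals were dim beside the brightest feature of each array, at 7459 for the control and 8046 for the liver-null array. Together they summed to 45.4 intensity units for the control and 62.4 for the liver-null array, which was 0.157% and 0.220% of the total signal. How bright a feature is rests partly on its probe, so the levels of different miRNAs are not set against each other as amounts.

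The 7 miRNAs divided into 4 with a higher signal in the liver-null liver and 3 with a slightly lower one, of which miR-142a-3p was slightly higher with loess centring. The 4 of 7 made 57.1%, against 45.0% (116 of 258) of all shared features. Differences are given as liver-null minus control on the log2(intensity + 1) scale, which understates the change of dim features. The median difference was 0.53 over the 7 miRNAs and -0.06 over all 258 features with a value on both arrays. Because miR-146a-5p and miR-146b-5p are nearly identical and 7 values are few, the median was also taken with these 2 averaged, which brought it to 0.17. The liver-null array's median level over the 258 features was 0.15 higher. Relative to that shift, the median of the 7 miRNAs was 0.37 and that of all features -0.21. At the 75th percentile of level the shift was -0.02, so it depended on the level used. Relative to the 75th percentile, these medians were 0.55 and -0.04.

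**Figure D1:**
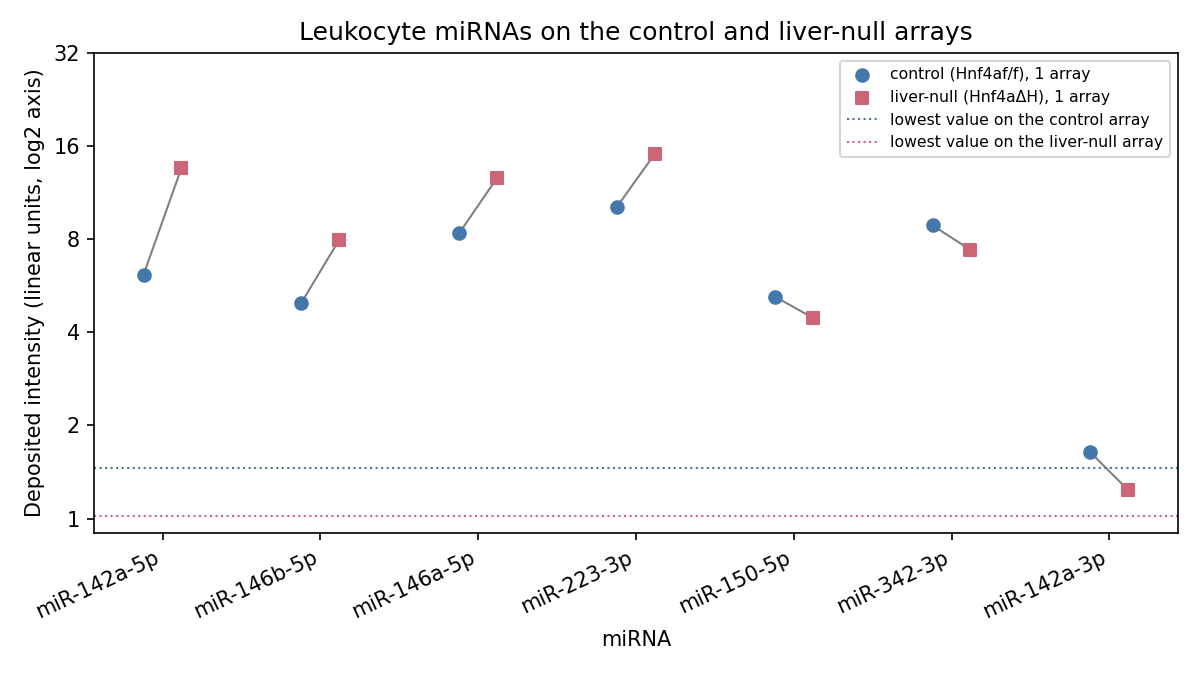
Deposited intensity (vertical log2 axis, linear units) of the 7 leukocyte miRNAs with a value, on the control array (circles) and the liver-null array (squares), joined per miRNA and ordered by their difference. Each point is 1 array with no error bar, dotted lines mark the lowest value of each array, and miR-142a-3p alone lies near them, at 1.64 and 1.24.

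miR-142a-5p, from the first arm of the pan-haematopoietic hairpin, gave a control signal of 6.15 and a liver-null signal of 13.6. The liver-null signal was 2.21 times the control signal, the highest ratio of the 7. The difference was 1.03 as deposited and 0.88 after centring each array on its median, so the miRNA stood at 2-fold or just below it depending on the scaling. It was the only one of the 7 miRNAs to reach 2-fold higher. Among all 258 features, 17 (6.59%) were at least 2-fold higher, and miR-142a-5p ranked 14 from the top. At 1.5-fold the count depended on the pseudocount. On the log2(intensity + 1) scale, 1 of the 7 was 1.5-fold higher, against 15.1% of all features. With no pseudocount, 3 were, miR-142a-5p, miR-146b-5p and miR-146a-5p, against 19% of all features. None of the 7 (0) was 1.5-fold lower on either scale, against 14.7% and 20.2% of all features. After median centring, quantile normalization, loess centring or with a pseudocount of 16, 0 of the 7 were 2-fold higher, against 3.49%, 5.81%, 3.88% and 0.775% of all features in that order.

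miR-142a-3p, cut from the other arm of the same hairpin, gave a control signal of 1.64 and a liver-null signal of 1.24. These signals were 1.12 and 1.21 times the lowest value reported on their arrays. The log2 difference was -0.24, and it was 0.03 with loess centring, so its direction depended on the scaling. The liver-null value lay below the lowest value of the control array, 1.45, and with that value as a common lowest level the difference was -0.10. A signal this near the bottom of both arrays leaves little room for a lower value to be read.

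miR-223-3p, a restraint on neutrophil activation, gave a control signal of 10.2 and a liver-null signal of 15.1, both well above the lowest values of the arrays. The liver-null signal was 1.48 times the control signal. The difference was 0.53 as deposited and 0.37 after median centring, below 2-fold either way. It was higher than 81.8% of the differences of all shared features as deposited.

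miR-146a-5p gave a control signal of 8.37 and a liver-null signal of 12.6, which is 1.51 times as bright, and the arrays differed by 0.54 on the log2 scale. miR-146b-5p gave a control signal of 4.99 and a liver-null signal of 7.97, which is 1.60 times as bright, for a difference of 0.58. Both signals were higher in the liver-null liver by much the same ratio, short of 2-fold. They may not be independent, since it is not known whether the probes tell these 2 miRNAs apart. After median centring the differences were 0.39 for miR-146a-5p and 0.43 for miR-146b-5p.

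miR-150-5p, a lymphocyte miRNA that represses the transcription factor Myb, gave a control signal of 5.22 and a liver-null signal of 4.46. The difference was -0.19 as deposited and -0.34 after median centring. miR-342-3p gave a control signal of 8.87 and a liver-null signal of 7.39, with a difference of -0.23 as deposited and -0.39 after median centring. As deposited, both lay between the 25th and 75th percentiles of all shared features, -0.33 and 0.36. None of the 7 miRNAs (0) was at least 2-fold lower, against 14 (5.43%) of the 258 features.

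**Figure D2:**
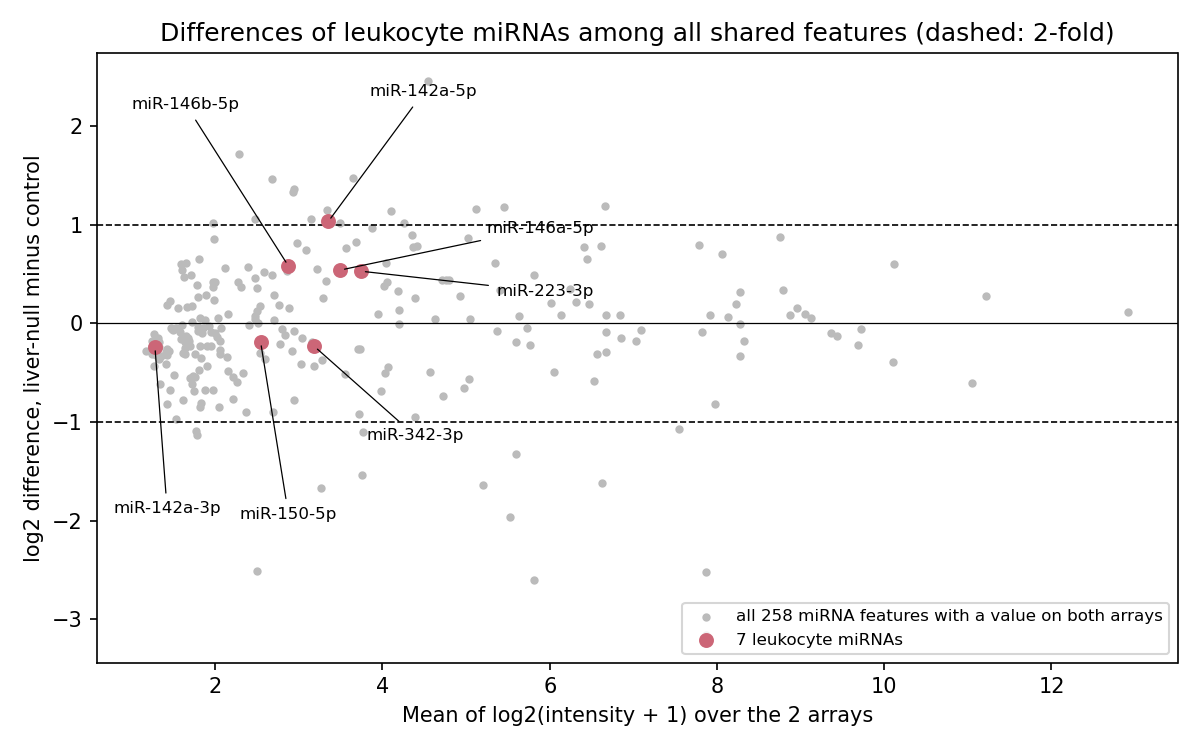
Difference between the arrays (vertical axis, log2, liver-null minus control) against the mean of log2(intensity + 1) over both arrays (horizontal axis) for all 258 shared features in grey and the 7 leukocyte miRNAs in red. Dashed lines mark 2-fold; miR-142a-5p lies on the upper one at 1.03, and the other 6 lie between -0.24 and 0.58 within the grey cloud.

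The differences between the arrays varied with the brightness of the features. When the 258 shared features were divided into quartiles by mean level, 5 of the 7 miRNAs fell in the second brightest quartile, and none (0) in the brightest. In that second brightest quartile of 64 features the median difference was 0.30, against -0.06 over all features, and 10 features (15.6%) were at least 2-fold higher. The 25th and 75th percentiles there were -0.30 and 0.78. Of the 5 miRNAs in it, only miR-142a-5p lay above this range and none (0) lay below it, so miR-223-3p, miR-146a-5p, miR-146b-5p and miR-342-3p lay within the middle of their own brightness class. miR-150-5p fell in the second dimmest quartile, where the median difference was -0.05, and miR-142a-3p in the dimmest, where it was -0.23, close to its own -0.24.

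The sizes of the differences depended on the processing. A change of pseudocount or a common lowest value cannot reverse a direction, and all settings reuse the same 2 arrays. A kept direction is therefore no measure of replicate error. Under 8 ways of processing, miR-142a-5p ranged from 0.42 to 1.15, miR-223-3p from 0.25 to 0.57, miR-146a-5p from 0.23 to 0.59 and miR-146b-5p from 0.19 to 0.68, all above 0. miR-150-5p ranged from -0.34 to -0.05 and miR-342-3p from -0.45 to -0.09, all below 0. miR-142a-3p ranged from -0.40 to 0.03. As deposited, 4 of the 7 differences lay above the 75th percentile of all shared features. With loess centring on the mean level or with quantile normalization, 2 did, miR-142a-5p and miR-146b-5p, and miR-342-3p then lay below the 25th percentile.

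**Figure D3:**
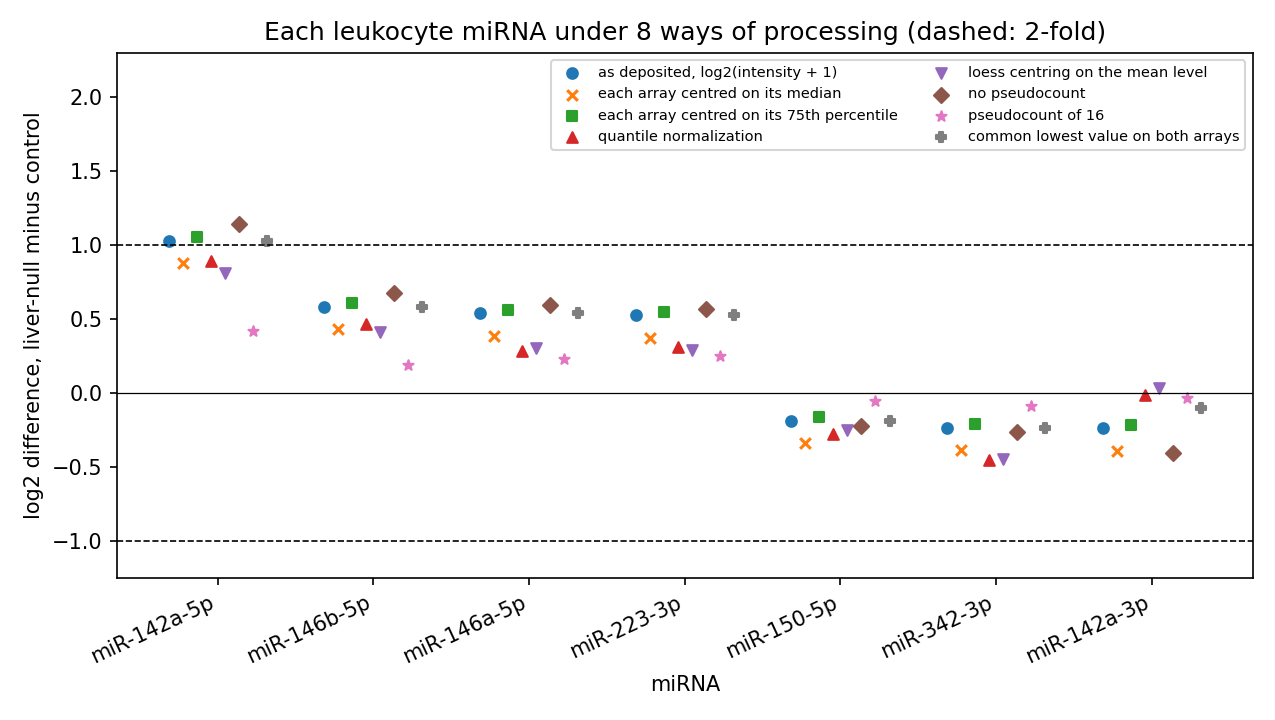
Difference between the arrays (vertical axis, log2, liver-null minus control) of each leukocyte miRNA under 8 ways of processing, one marker each, with dashed lines at 2-fold. miR-142a-5p lies at or above 2-fold in 4 of them and between 0.42 and 0.90 in the others, and miR-142a-3p lies on both sides of 0.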

How the data were processed

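Liver RNA was labelled with an LNA array labelling kit, per the labels' protocols, and read in 1 channel on 2 arrays, 1 per genotype. The dye is given as Hy5 in the label protocol but as Cy5 in the label entry. The authors deposited array intensity values on a linear scale. Scanner software, background correction, filters and normalization were not stated. Missing values were not replaced. Intensities were converted to log2(intensity + 1) with no further scaling, and control was subtracted from liver-null. All 258 features with a value on both arrays were processed together. With 1 array per group no test was made, and it is this number that sets the precision. The members and lists were chosen with earlier results of these data known. All 8 miRNAs were to be named. The accompanying lists (opposite arms, other immune miRNAs, cell type markers) could not be applied, since names were paired with accessions for the 8 miRNAs alone. The alternatives were centring on the median or 75th percentile, quantile normalization, loess centring (span 0.4), pseudocounts of 0 and 16, thresholds of 1.5-fold and 4-fold, and a filter on dim features. A common lowest value, averaging miR-146a-5p with miR-146b-5p, and 1.5-fold with no pseudocount were added after seeing the data. The code was tested on simulated data. The analysis ran in Python 3.11.15 with numpy 2.4.6, pandas 2.3.3, matplotlib 3.10.9 and, for loess, statsmodels 0.14.6.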

Additional observations from a re-analysis of the deposited data

How the results depend on the processing

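No paired analysis was possible because there was a single array for each of the genotypes, which also left no replicate to omit. The median difference over the 7 measured miRNAs, 0.53 as deposited, was 0.37 with median centring, 0.55 with 75th percentile centring, 0.28 with quantile normalization, 0.29 with loess centring, 0.57 with no pseudocount and 0.19 with a pseudocount of 16. It stayed at 0.53 with a common lowest value and was 0.17 with miR-146a-5p and miR-146b-5p averaged. By construction, the larger pseudocount shrinks all differences. The number of miRNAs at least 2-fold higher went from 1 to 0 with median centring, quantile normalization, loess centring and a pseudocount of 16. In that order, 3.49%, 5.81%, 3.88% and 0.775% of all features were 2-fold higher. At 4-fold the number was also 0, against 0.388% of all features. It stayed at 1 with 75th percentile centring (6.59%), a common lowest value (6.59%), no pseudocount (7.36%) and among the brighter features (10.1%). In all these settings 0 miRNAs were lower at the threshold, against 1.55% of features at 4-fold and 2.71% to 9.3% at 2-fold. At 1.5-fold, 1 was higher (15.1% of all features) and 0 lower (14.7%), and with no pseudocount, a combination added after seeing the data, 3 were higher (19%) and 0 lower (20.2%). Of the 49 recomputed differences of single miRNAs, 48 kept their sign. A change of pseudocount or a common lowest value cannot reverse a sign. Centring on the median or 75th percentile moves all differences by the same amount. Loess centring instead subtracts a trend that varies with the mean level. All settings reuse the same arrays, so this count does not measure replicate error. The 1 value that changed sign was miR-142a-3p with loess centring, at 0.03, and the cause was not tested. The dim signals of miR-142a-3p limit what can be read from it.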
